A study of Danio rerio with 24 samples.

Results

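The skeletal muscle of unstimulated adult zebrafish (*Danio rerio*) was described against liver and kidney of the same treatment. The comparison used the 12 arrays of fish injected with PBS, of 24 arrays in the series: 4 of muscle, 4 of liver and 4 of kidney. All fish were wild-type, 9 months old and kept on the diet labelled Normal, and were sampled 3 h after intraperitoneal injection. Each array carried Cy3-labelled RNA pooled from 3 fish, so the spread between arrays is a spread between pools, and which fish entered a pool, or their sex, was not given in the sources used here. The 12 arrays of fish injected with 10 μg of LPS (4 per tissue) served only as a repeat of the tissue difference. Muscle was set against the mean of liver and kidney, and against each of them.

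Skeletal muscle fibres are filled with sarcomeres, in which myosin thick filaments pull on actin thin filaments between Z discs. A nerve impulse releases calcium from the sarcoplasmic reticulum, calcium binds troponin on the thin filament, and pumps and the buffer parvalbumin take the calcium away again. Creatine kinase and glycolysis supply the ATP. Fish trunk muscle holds a thick layer of fast fibres and a thin superficial layer of slow fibres, which use separate genes for many of these proteins. The liver makes plasma proteins and glucose, and the fish kidney holds both nephrons and the blood-forming tissue.

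Levels are log2 of the processed signal minus the 75th percentile of the array, so 0 is the level of a probe at that percentile. A probe is called well above background where the scanner software set that mark for its spot. Levels rank arrays for a probe and not probes against each other. In such bulk samples, fewer cells of a type and less RNA per cell cannot be told apart. Between 57.3% and 63.5% of spots were well above background on the muscle arrays, against 42.5% to 52.4% on the liver arrays and 54.6% to 84.8% on the kidney arrays. Muscle arrays were the dimmest, with a raw 75th percentile of 379 to 732 intensity units, against 1056 to 4848 for liver and 1060 to 4814 for kidney. The muscle arrays shared no slide and no scan day with the other tissues, so slide, scan day and tissue cannot be told apart for muscle. The LPS muscle arrays lay on the scan days of PBS muscle and partly on its slides, so the repeat in LPS arrays carries the same limit. Kidney replicates 1, 2 and 3 lay on a slide of their own.

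The tissue labels were checked first. Over the 182 measured genes of the muscle lists, the summed signal (log2 of the sum, relative to the 75th percentile) lay between 11.52 and 13.64 on the muscle arrays, against 7.96 to 9.18 in liver and 8.44 to 10.91 in kidney, so all 4 muscle arrays stood above all others. Of the fibre markers, *actc1b*, an actin of the sarcomere, averaged 8.39 ± 0.86 in muscle, against 0.05 ± 1.37 in liver and 3.96 ± 3.21 in kidney (SD, n = 4 each). The kidney SD was large because replicates 1 and 4 read 6.32 and 7.11 and replicates 2 and 3 read 1.34 and 1.04, and the fast-fibre genes below split the kidney arrays the same way. For *pvalb2*, a parvalbumin of fast fibres, kidney read 6.82 and 7.55 on replicates 1 and 4, and 0.73 and 0.43 on replicates 2 and 3.

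Markers of other tissues were also read on the PBS arrays. The epidermal, the nerve and myelin, and the pigment cell sums each put all 4 muscle arrays above all others. Nerve and myelin genes summed to 3.11 to 4.86 in muscle, against 1.89 to 2.23 in liver and 2.21 to 2.88 in kidney. Pigment cell genes summed to 0.34 to 2.07 in muscle, against -1.40 to -0.72 in liver and -0.91 to 0.21 in kidney. All 24 epidermal genes measured were well above background on the 4 muscle arrays, as were 8557 of all 12732 genes tested. Their summed signal was 10.32 to 11.90 in muscle, against 7.01 to 9.18 in liver and 6.29 to 9.07 in kidney, where "their" means the epidermal genes. Digestive enzymes of the exocrine pancreas summed to 7.64 to 9.74 in muscle, against 9.69 to 11.31 in liver and 3.92 to 5.46 in kidney. Oocyte genes varied with the replicate number as well as the tissue. Replicates 1 and 3 summed to 11.92 and 11.82 in muscle, 10.45 and 10.56 in liver and 10.66 and 10.59 in kidney, while replicate 2 read 8.37 in muscle, 8.17 in liver and 5.59 in kidney. Replicate 4 read 10.08 in muscle and 9.93 in liver but 5.22 in kidney. The liver arrays carried intestinal genes, at 8.77 to 11.06, against 0.45 to 4.46 in muscle and 0.78 to 4.18 in kidney. The part of these transcripts in the tissue differences was not tested, apart from the values given beside each group below.

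**Figure D1:**
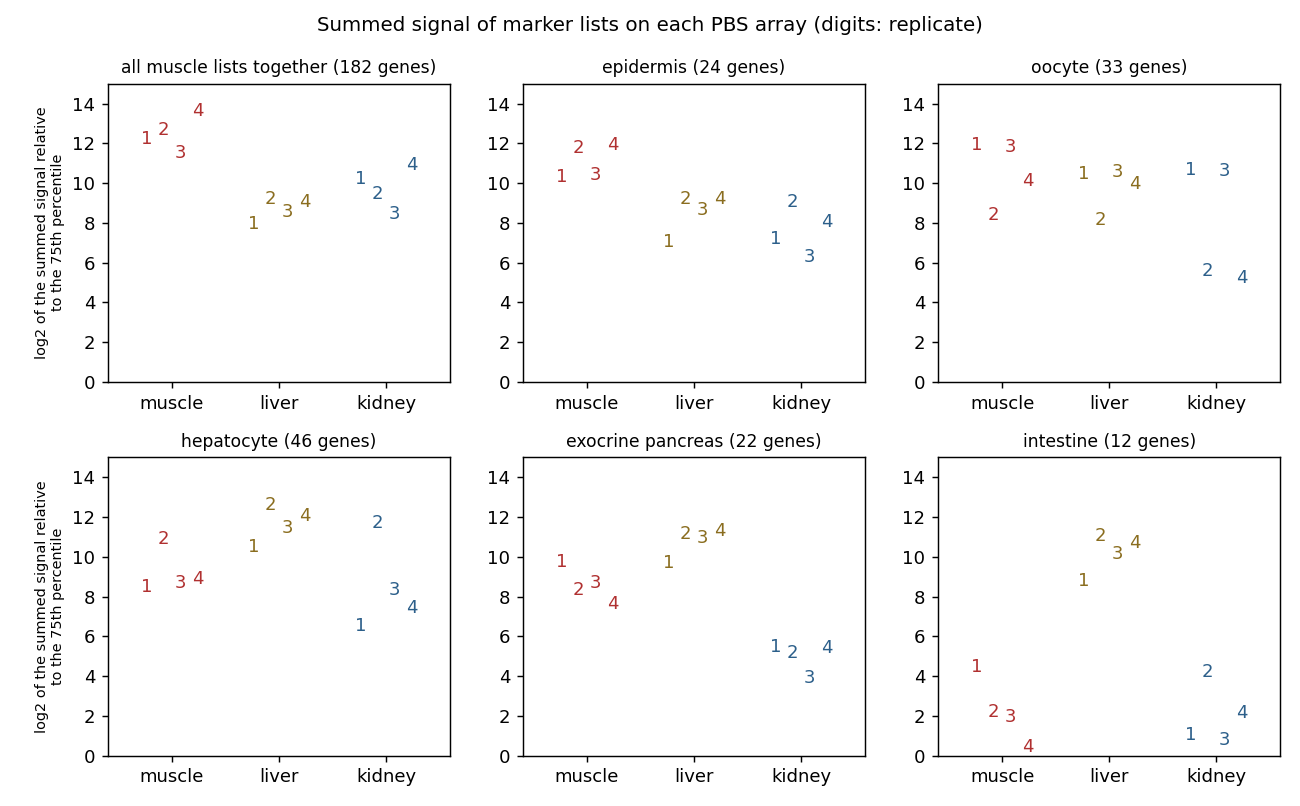
Summed signal of 6 gene lists on each PBS array (y axis: log2 of the summed signal relative to the 75th percentile of the array; digits: replicate number; muscle left of liver and kidney). Muscle arrays lead for the muscle and epidermis lists, liver arrays for the intestine list, and replicates 1 and 3 read high for the oocyte list in each tissue.

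Of 12732 genes tested, 658 (5.17%) were higher and 516 (4.05%) lower in muscle than the mean of liver and kidney at an adjusted p under 0.05 (limma). Together they made up 9.22% of the genes. Against liver alone 698 genes (5.48%) were higher and 638 (5.01%) lower, and against kidney alone 533 (4.19%) and 438 (3.44%). The stricter count, higher or lower than in each of liver and kidney, held 340 genes (2.67%) and 159 genes (1.25%). The 4 muscle arrays lay above all 8 others in 321 of the 340 and below them in 147 of the 159, where 506 (3.97%) and 337 (2.65%) of all genes did so. Both the calls and this order rest on the same values. All but 2 of the 340 were well above background on every muscle array (338 genes), while 188 of the 340 were so on no liver array and 8 on no kidney array. Over all 12732 genes, 3067 were well above background on no liver array and 767 on no kidney array. With the replicate number as a block the counts were 1199 (9.42%) and 1014 (7.96%) against the mean and 587 and 340 against each tissue, which included 339 of the 340 higher and 159 of the 159 lower genes. Without muscle replicate 2 the higher counts were 432 and 179, without muscle replicate 4 the count higher than each was 181, without kidney replicate 2 the count lower than each was 102, and with the scan day as a random block the 4 counts were 348, 214, 121 and 70.

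Leading genes were taken from those higher in muscle than in each tissue, with all 4 muscle arrays above all 8 others. Genes with only a clone or locus name were left out. The lack of overlap in the leading genes is thus part of their choice. Ranked by the size of the difference, the first 15 were all named for proteins of the fibre: the parvalbumins *pvalb4*, *pvalb3* and *pvalb7*, troponins *tnni2b.2*, *tnni2a.3*, *tnnc2.2* and *tnnt3b*, tropomyosins *tpma* and *tpm4a*, myosin chains *myhc4*, *mylz3* and *myl1*, creatine kinases *ckmt2b* and *ckmb*, and the Z-disc protein *myoz1a*. *pvalb4* and *pvalb3* gave the largest differences. Parvalbumin is the soluble calcium buffer of fast fibres. On the muscle arrays *pvalb4* read 8.51, 8.30, 8.12 and 10.08, against -5.41, -4.30 and -4.47 in liver, where the spot of replicate 4 was an outlier and left out, and 3.97, -1.42, -1.29 and 6.30 in kidney. No liver array was well above background, so muscle was at least 2800-fold higher than liver, where such a bound sets the brighter mean against, on each array of the dimmer tissue, the higher of the probe's own signal and the lowest signal of any probe well above background. The fitted difference from the mean of the other tissues was 10.17 ± 1.31 (SE, adjusted p = 0.0011).

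*pvalb3* was at least 4779-fold higher in muscle than in liver and 5.86 higher in log2 than in kidney (adjusted p = 0.013), and *pvalb2* was at least 3127-fold higher than in liver but missed the threshold against kidney (log2 difference 4.94, adjusted p = 0.052). *pvalb7* had less signal in kidney, at -1.60, -2.41, -3.55 and -0.20, against 4.96, 5.76, 4.43 and 6.56 in muscle. Of 7 parvalbumin genes measured, 5 were higher in muscle and the median difference was 8.39, against 0.06 over all genes tested. The others were *pvalb6*, which read -3.43 to -0.07 in muscle and -1.88 to 1.39 in kidney, and *pvalb5*, which was well above background on no muscle array. Parvalbumin, myosin heavy chain and troponin I genes lie in families of close copies, so a probe may read more than 1 of them.

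**Figure D2:**
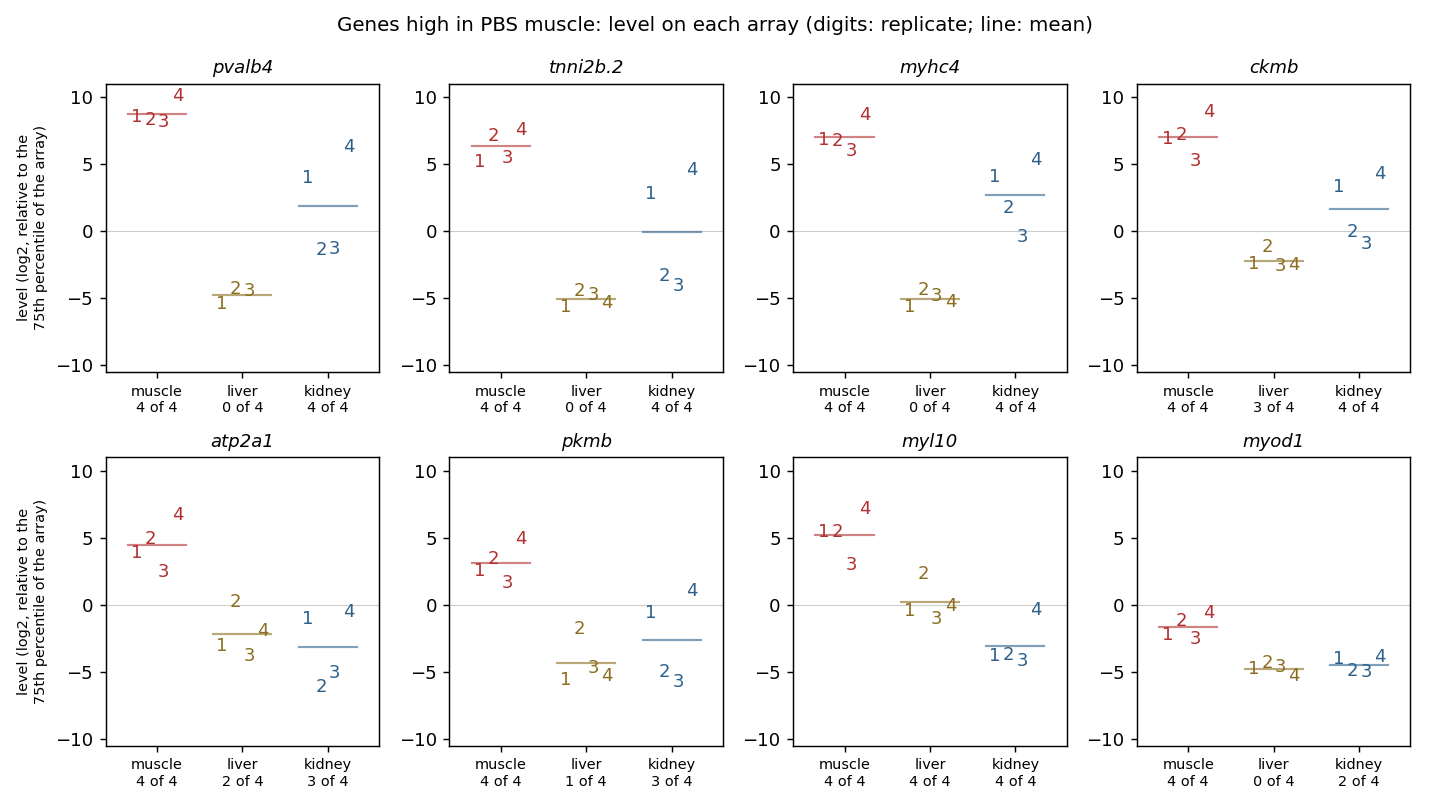
Level of 8 genes on each PBS array (y axis: log2 level relative to the 75th percentile of the array; digits: replicate number; lines: tissue means; below each tissue: arrays well above background). The 4 muscle arrays lie above all liver and kidney arrays for each gene, and kidney replicates 1 and 4 lie above replicates 2 and 3 for *pvalb4*, *tnni2b.2*, *myhc4*, *ckmb*, *atp2a1* and *pkmb*. For the leading genes *pvalb4*, *tnni2b.2*, *myhc4* and *ckmb* the lack of overlap was a condition of their choice.

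In the thick filament, 10 of 13 measured genes were higher in muscle and none lower, with a median difference of 5.68. Beside this count, and those of the muscle lists below, stand 5.17% of all genes higher and 4.05% lower. The fast heavy chain *myhc4* read 6.80, 6.72, 6.01 and 8.68 in muscle, against -5.62, -4.40, -4.82 and -5.29 in liver and 4.00, 1.75, -0.44 and 5.34 in kidney (difference 8.23 ± 0.89, adjusted p = 0.00042). Muscle exceeded liver by at least 913-fold. The groups did not overlap, which the choice of leading genes required. Another heavy chain, *myhz1.1*, differed by 8.49 from the mean of both tissues and missed the threshold against kidney (4.86, adjusted p = 0.051). The myosin binding proteins differed among themselves. *mybpc3*, known as a heart form in mammals, was well above background on all 4 muscle arrays and on no liver or kidney array, at least 4.04-fold higher in muscle than in liver (adjusted p = 0.060) and 23.6-fold higher than in kidney (adjusted p = 0.0046). The test was passed by 3 of its 9 probes. Both bounds depend on the lowest level well above background in the dimmer tissue, so they do not rank liver against kidney. *mybpc2b*, the fast form, read 6.22, 9.26, 6.84 and 6.75 in muscle, against 3.66, 3.88, 4.33 and 3.26 in liver and 7.59, 6.39, 6.53 and 7.77 in kidney, and passed no threshold against kidney. Other probes of *mybpc2b* gave larger differences, up to 5.2, and 2 of its 3 probes passed the test.

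The thin filament list had 12 of 17 members higher in muscle and none lower (median difference 4.14). *tnni2b.2*, an inhibitory troponin of fast fibres, read 5.18, 7.10, 5.43 and 7.54 in muscle, against -5.67, -4.48, -4.78 and -5.34 in liver and 2.74, -3.37, -4.12 and 4.58 in kidney. Its difference was 8.87 ± 1.38 (adjusted p = 0.0022), and muscle exceeded liver by at least 549-fold. *tpma*, a tropomyosin that blocks the myosin sites on actin at rest, was at least 1042-fold higher than in liver. *tpm4a* was called on 1 of its 4 probes, and the others gave differences down to 1.0. Exceptions were *tpm1* (difference -0.65, with other probes up to 4.5), *acta1b* (2.77, adjusted p = 0.26) and *lmod2a*, a nucleator of actin filaments that was well above background on no muscle array and on all 4 kidney arrays (-2.21, adjusted p = 0.090, and 0.037 with the replicate block).

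Slow-fibre genes were higher in 12 of 18 cases and lower in none (median difference 4.46). *myl10*, a regulatory light chain, read 5.42, 5.44, 2.99 and 7.15 in muscle, against -0.44, 2.31, -1.05 and -0.08 in liver and -3.80, -3.76, -4.21 and -0.37 in kidney (difference 6.67 ± 0.90, adjusted p = 0.0011). Here the liver average lay above that of kidney, the reverse of *myhc4*. *tnnc1b*, the calcium-binding troponin of slow and cardiac muscle, differed by 4.72 from liver and 8.43 from kidney. Among the slow heavy chains, *smyhc3* differed by 7.16 and *smyhc2* by 6.06, while *smyhc1* read -3.68, -3.67, -6.23 and 2.22 in muscle and passed no test (difference 3.27, adjusted p = 0.17). Muscle replicate 4 was the highest of the 4 muscle arrays for *myl10*, *tnnc1b*, *smyhc1*, *smyhc2* and *smyhc3*, and replicate 3 the lowest.

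At the Z disc and M band, 14 of 24 genes were higher and none lower (median difference 2.91). *actn3a*, an α-actinin that anchors thin filaments in fast fibres, read 5.02, 6.47, 4.17 and 7.10 in muscle, against -4.80, -2.0, -2.95 and -2.64 in liver and 3.09, -0.45, -0.99 and 4.17 in kidney. Muscle replicate 3 and kidney replicate 4 met at 4.17, and the difference was 6.51 ± 0.97 (adjusted p = 0.0018). Desmin, the intermediate filament around the Z disc, has 2 genes in zebrafish. *desma* was higher in muscle (5.42 ± 1.14, adjusted p = 0.010). *desmb* read -2.04, -4.28, -6.40 and -3.81 in muscle, against -0.41, 1.89, 1.25 and 1.41 in liver and -7.38, -2.73 and -7.67 in kidney, where the outlier spot of replicate 4 was left out. Its difference was -5.17 against liver (adjusted p = 0.016) and 1.79 against kidney (adjusted p = 0.43), so *desmb* was lower against liver only. The intestinal sum of liver replicates 1 to 4 was 8.77, 11.06, 10.13 and 10.72, the same order as *desmb*. The part of intestinal transcripts in this difference was not tested. The ubiquitin ligases *trim63a* and *trim63b*, known in mammals for muscle wasting, were higher by 5.21 and 5.68. Of 11 myosin chaperones and Kelch proteins 7 were higher, among them *klhl31* (6.22), the myosin chaperone *unc45b* (3.29) and its partner *hsp90aa1.1* (3.59).

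Of the genes of excitation-contraction coupling, 14 of 18 were higher and none lower, with a median difference of 4.35. *atp2a1*, the calcium pump of the fast sarcoplasmic reticulum, read 3.83, 4.88, 2.42 and 6.72 in muscle, against -3.06, 0.23, -3.80 and -1.92 in liver and -1.03, -6.09, -5.04 and -0.54 in kidney (difference 7.12 ± 1.16, adjusted p = 0.0028). The calcium store proteins *casq1a* and *casq1b* differed by 6.88 and 6.66. Of the voltage sensor and release channel, *stac3* differed by 5.14, *jph2*, which ties the membranes together, by 4.36, the sensor *cacna1sb* by 4.34 and the channel *ryr1b* by 2.83, on 1 of its 7 probes. *cacna1sb* passed the threshold against kidney but not against liver (adjusted p = 0.059), and *ryr1b* against liver but not kidney (adjusted p = 0.16).

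The membrane and nerve contact of the fibre gave a weaker contrast, with 9 of 24 genes higher and none lower (median difference 1.48). *cav3*, which shapes membrane pits, was higher by 5.45 ± 1.18 (adjusted p = 0.014, liver replicate 4 left out as an outlier spot), and *sgcg*, a sarcoglycan of the dystrophin complex, by 4.64. The acetylcholine receptor subunits *chrna1* and *chrnd*, which open at the nerve ending, were higher by 2.70 and 3.24. Dystrophin itself (*dmd*) read -4.57, -1.92, -4.85 and -1.88 in muscle and was well above background on 2 of those 4 arrays, against none of the 3 liver arrays with a usable spot and 2 of the kidney arrays (difference 1.13, adjusted p = 0.41).

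Energy buffering split by gene copy. In the list of creatine, adenylate and glycogen genes, 12 of 21 were higher and 1 was lower, with a median difference of 4.43 (the list also held *actn3b*). *ckmb*, the cytosolic creatine kinase of muscle, read 6.89, 7.18, 5.27 and 8.89 in muscle, against -2.45, -1.16, -2.63 and -2.55 in liver and 3.29, -0.07, -0.93 and 4.25 in kidney (7.34 ± 0.94, adjusted p = 0.00088). The mitochondrial kinase *ckmt2b* was higher by 7.73 ± 1.3 (adjusted p = 0.0032). Its relative *ckmt1*, singled out after its values were seen, went the other way, with -1.11, -2.65, -4.74 and -1.99 in muscle, against 3.17, 5.17, 4.40 and 5.33 in liver and 1.17, 1.87, -0.89 and 2.07 in kidney (-5.41 ± 0.73, adjusted p = 0.0011). The adenylate genes *slc25a4*, which exchanges ADP for ATP across the mitochondrial membrane, and *ampd1*, which deaminates AMP, were higher by 7.0 and 6.59, and the glycogen genes *pygma* and *gyg1b* by 4.48 and 5.07. The lower member was the sugar transporter *slc2a12* (-3.91 ± 0.65, adjusted p = 0.0030).

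Myoglobin went against the list it stood in. *mb*, the oxygen-binding protein of muscle, read 1.51, 2.15, -1.49 and 4.21 in muscle, against 0.58, 1.46, 1.98 and 1.15 in liver and 5.98, 6.90, 4.46 and 7.17 in kidney. All 4 kidney arrays lay above all 4 muscle arrays, with a difference of -4.53 (adjusted p = 0.015), while against liver the difference was 0.31 (adjusted p = 0.90). None of its 4 probes passed the test against the mean of both tissues, with differences from -2.4 to -1.7. In the LPS arrays the same difference was -4.04 and passed the test.

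Over 33 glycolytic and gluconeogenic genes the median difference was -0.15, with 7 higher and 7 lower, beside 5.17% and 4.05% of all genes. In some steps the 2 directions fell on related genes, in pairs picked for this after their values were seen. For pyruvate kinase, *pkmb* read 2.56, 3.43, 1.65 and 4.93 in muscle, against -5.61, -1.76, -4.67 and -5.30 in liver and -0.61, -4.98, -5.77 and 1.05 in kidney (6.60 ± 1.23, adjusted p = 0.0053). The liver and red cell form *pklr* read 2.98, 4.16, 2.65 and 2.3 in muscle, against 6.51, 8.29 and 7.03 in liver, with replicate 4 left out as an outlier spot, and 3.31, 8.01, 3.55 and 4.24 in kidney (-3.01 ± 0.84, adjusted p = 0.049). The aldolase *aldoab* was higher by 5.39. Likewise glucose-6-phosphate isomerase *gpib* was higher by 4.87 with *gpia* at -1.31, and phosphoglycerate mutase *pgam2* higher by 3.19 with *pgam1a* at -1.58. The fructose bisphosphatases parted too, with *fbp2* at 4.77 and *fbp1b*, the gluconeogenic form, at -3.75. *pck1* and *pck2*, the carboxykinases of gluconeogenesis, differed by -4.25 and -3.64. *gapdh* (0.65, adjusted p = 0.53) and *eno3* (0.55, adjusted p = 0.57) did not pass the test.

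**Figure D3:**
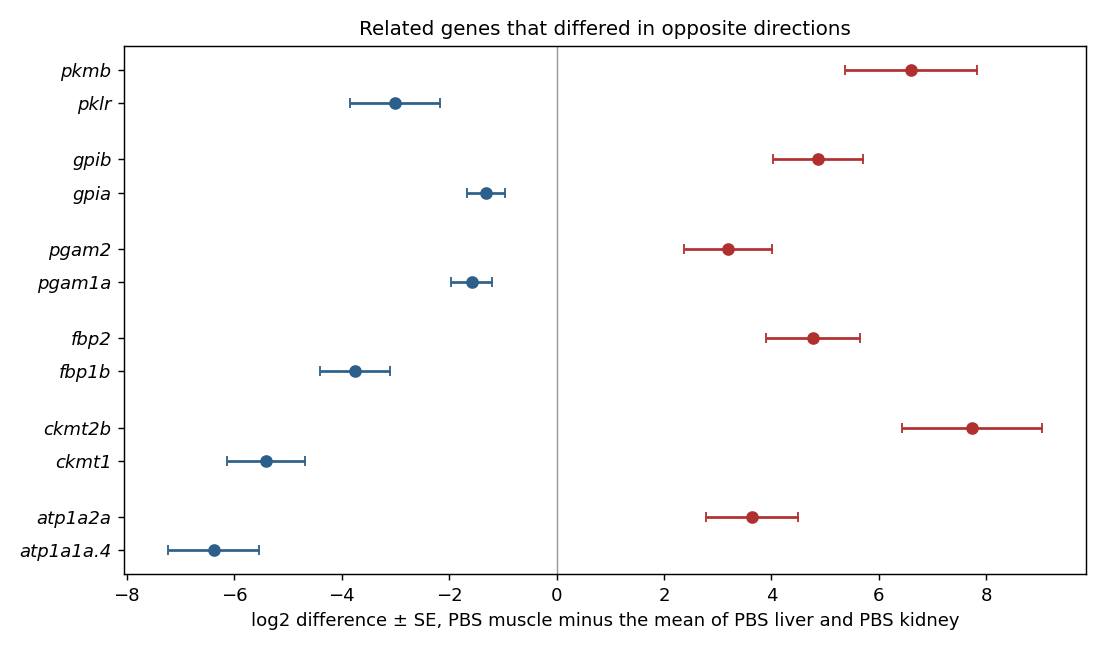
Differences of 6 pairs of related genes (x axis: log2 difference, PBS muscle minus the mean of PBS liver and PBS kidney; bars: SE; red higher, blue lower in muscle). The upper gene of each pair lies right of 0 and the lower one left of it, from *pkmb* (6.60) and *pklr* (-3.01) to *atp1a2a* (3.63) and *atp1a1a.4* (-6.39). The pairs were picked for opposite signs, so the signs are part of their choice.

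Regulators of the muscle lineage were higher in 8 of 33 cases and lower in 1 (median difference 1.01), beside 5.17% and 4.05% of all genes. With the replicate block 13 were higher, beside 9.42% of all genes. *myod1*, a master regulator of muscle fate, read -2.23, -1.2, -2.55 and -0.59 in muscle, against -4.74, -4.36, -4.61 and -5.27 in liver and -4.05, -4.96, -5.03 and -3.91 in kidney, with no overlap (2.97 ± 0.43, adjusted p = 0.0015). The homeobox genes *six1b* (4.48), *six2a* (2.86) and *pitx3* (2.31) and their cofactor *eya1* (3.26) were higher too. *mstnb*, the secreted brake on muscle growth, was higher by 4.42 ± 0.57 (adjusted p = 0.0011, liver replicate 4 left out as an outlier spot). *myog* was well above background on no array and *myf6* on 1 muscle array, so their levels gave no contrast. The gene that was lower, *tcf21*, is known from mesothelium and fibroblasts (-1.93 ± 0.42, adjusted p = 0.013).

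**Figure D4:**
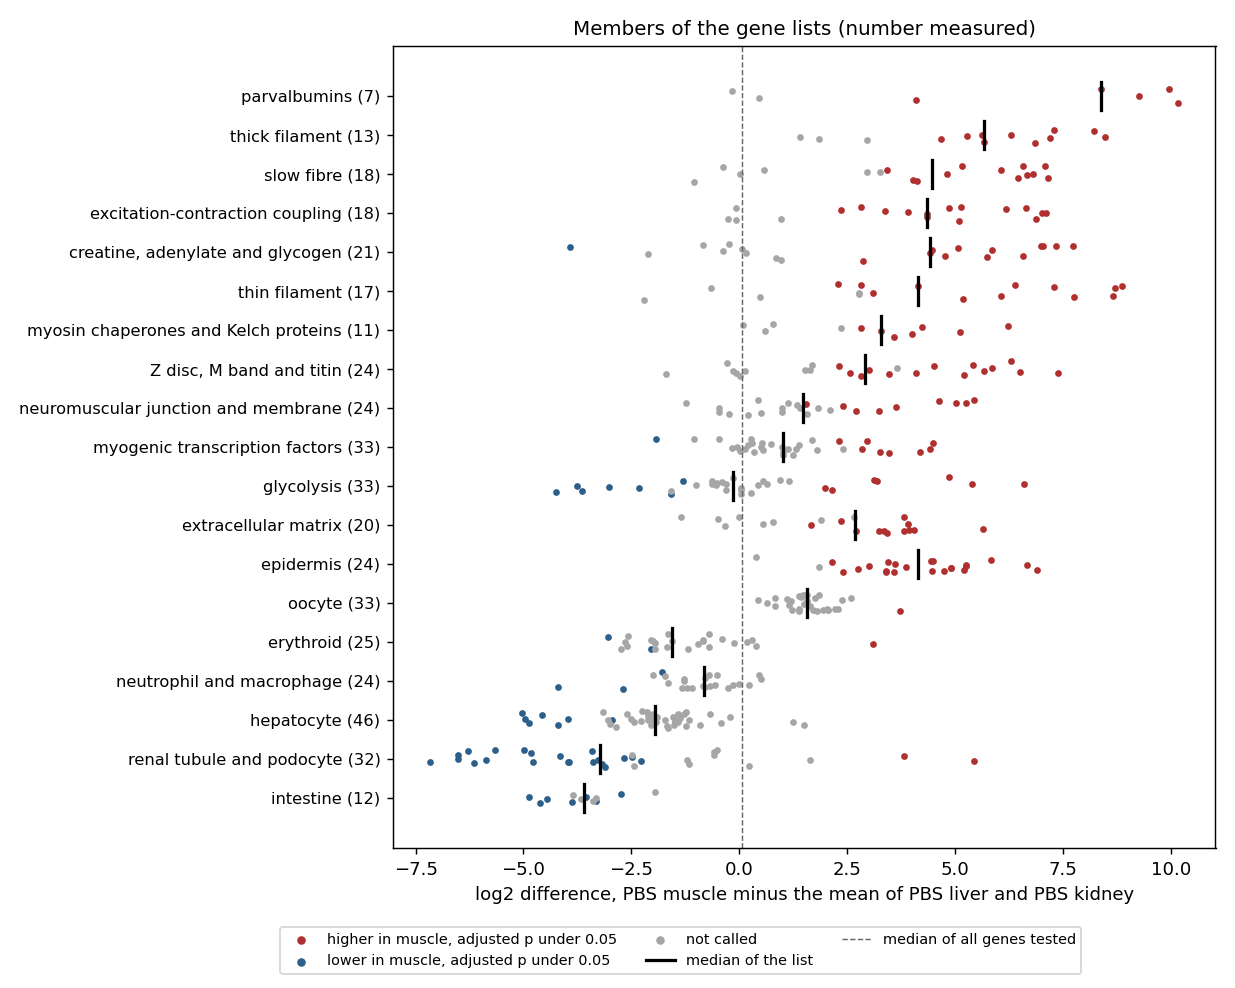
Difference of each measured member of 19 gene lists (x axis: log2 difference, PBS muscle minus the mean of PBS liver and PBS kidney; points: genes; bars: list medians; dashed line: median of all genes tested). The muscle lists and the epidermis list lie to the right, with medians of 1.01 to 8.39, and the renal (-3.23) and intestine (-3.61) lists to the left. The extracellular matrix (2.69) and oocyte (1.57) lists also have medians to the right.

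Among the genes that met the conditions set for the leading genes, 10 were picked for the signal of their probes in muscle, which is no ranking of transcript levels: *nme2b.2*, *pvalb3*, *icn*, *pvalb4*, *icn2*, *tnnt3b*, *krt5*, *mylz3*, *mylpfa* and *tnni2a.3*. *nme2b.2*, a nucleoside diphosphate kinase, read 9.68, 9.5, 8.17 and 10.61 in muscle, against 2.1, 4.58, 1.38 and 1.75 in liver and 6.57, 2.40, 2.12 and 7.28 in kidney (5.97 ± 1.0, adjusted p = 0.0032), with the kidney pattern of the fast-fibre genes. The keratin *krt5* and the calcium-binding *icn* and *icn2* stood in the list of epidermal genes. *icn* read 8.5, 9.17, 8.68 and 9.53 in muscle, against 3.75, 5.81, 5.45 and 5.93 in liver and 5.73, 6.97, 4.31 and 6.31 in kidney (3.44 ± 0.54, adjusted p = 0.0024).

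Of the 24 epidermal genes, 22 were higher in muscle and none lower, with a median difference of 4.15, beside 5.17% of all genes higher. The claudin *cldna*, a tight junction protein, read 1.62, 4.70, 2.1 and 2.96 in muscle, against -5.19, -4.40, -1.73 and -2.95 in liver and -8.46, -0.53, -4.13 and -5.14 in kidney (6.91 ± 1.18, adjusted p = 0.0035). Envoplakin (*evpla*) was higher by 6.66, *krt15* by 4.91, and *tp63*, the regulator of stratified epithelium, by 4.44. Muscle replicates 2 and 4 were the higher ones for *cldna*, *evpla*, *krt15* and *tp63*. The epidermal sum was 10.32, 11.74, 10.42 and 11.90 on muscle replicates 1 to 4. The sum of all muscle lists was 12.19, 12.66, 11.52 and 13.64. Both sums, and that of the slow-fibre list, were highest on replicate 4 and next on replicate 2. The lowest array was replicate 1 for the epidermal sum and replicate 3 for the muscle and slow-fibre sums. Of 22 nerve and myelin genes 3 were higher and 19 were not called (median 0.41), and of 11 pigment cell genes 4 were higher. *mpz*, a myelin protein, was higher by 5.16 on 1 of its 3 probes, and *sox10*, a neural crest regulator, by 3.25 on 1 of its 2 probes. Connective tissue genes followed, with 12 of 20 matrix genes higher and none lower (median 2.69). Among them were the keratan sulphate proteoglycan *lum* (5.65, liver replicate 3 left out as an outlier spot), *thbs4b* (4.06), *col1a1a* (3.91) and *sparc* (2.70). *col10a1a*, of bone and cartilage, was higher by 5.47. In the bone, cartilage and tendon list 7 of 20 genes were higher and 13 were not called. That list summed to 3.59 to 5.51 in muscle, against 3.79 to 6.09 in liver and 2.79 to 4.37 in kidney.

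Well above background on all 4 muscle arrays and on none of the 8 others were 15 genes. They held sarcomere genes (*mybpc3*, *myl2b*, *tnni4b.2* and *tnni4b.3*), the calcium channel subunit *cacng6a*, the small heat shock protein *cryabb*, *smtnl1*, *mettl21cb*, *niban1a*, *krt93*, *aqp3b*, *hpdb*, *arid6*, *gjb10* and *crfb12*. *tnni4b.2*, a troponin I, read 0.21, 0.11, -1.97 and 1.98 in muscle, at least 7.29-fold above liver and 42.5-fold above kidney. *hpdb*, named for a tyrosine breakdown enzyme that is a liver protein in mammals, read -0.82, 2.38, -1.33 and 0.03 in muscle, at least 7.21-fold above liver and 42.1-fold above kidney. Such bounds depend on the lowest level well above background. It was -3.36 to -2.17 on the liver arrays and -7.49 to -3.06 on the kidney arrays, so the bounds do not rank liver against kidney.

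Well above background on no muscle array and on all 8 others were 30 genes, 26 of them called lower than in each tissue. When liver or kidney alone was enough, the count was 198 genes, 67 with liver and 161 with kidney. The largest difference belonged to *slc10a2*, a sodium-dependent bile acid carrier, with -5.78, -5.72, -6.72 and -5.59 in muscle, against 1.59, 4.40, 4.14 and 3.75 in liver and -1.08, -0.65, -1.63 and 0.80 in kidney. Muscle was at least 191-fold lower than liver and at least 11-fold lower than kidney (-7.36 ± 0.58, adjusted p = 8.8e-05).

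Other carriers among the leading lower genes were separated too, which their choice by the mirrored conditions required. *slc6a19a.1*, for neutral amino acids, read -4.60, -6.28, -7.06 and -5.90 in muscle, against 0.78, 3.64, 1.98 and 2.77 in liver and 0.48, 1.23, -1.12 and 0.87 in kidney, which made muscle at least 84.3-fold lower than liver and 22.2-fold lower than kidney. *slc52a3-1*, for riboflavin, was at least 27.0-fold lower than liver and 57.3-fold lower than kidney, and *slc5a9*, for sugars, at least 39.5-fold and 27.3-fold, on 1 of its 2 probes. *tmigd1* and *tmem37* were also well above background on no muscle array (-7.05 and -7.0). Others of the 15 leading lower genes were well above background on part of the muscle arrays. The glucose carrier *slc5a1* read -1.16, -6.07, -3.69 and -2.54 in muscle, against 3.37, 6.28, 4.59 and 4.53 in liver and 3.03, 3.57, 1.34 and 3.62 in kidney (-7.15 ± 0.83, adjusted p = 0.00052). The remaining leaders, *anpepb.1* (an aminopeptidase of brush borders), *cdh17* (a cadherin), *slc22a6l* (organic anions), *atp1a1a.4* (a sodium pump subunit), *slc6a19b*, *pdzk1* (a scaffold of carriers) and *bin2a*, differed by -7.11 to -6.05. Many of these carriers are also intestinal, and the liver arrays were those with intestinal transcripts. The intestinal sums of kidney overlapped those of muscle. The leaders were chosen as lower than in each tissue, so their call against kidney is part of the choice, and the part of the intestinal transcripts was not tested.

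**Figure D5:**
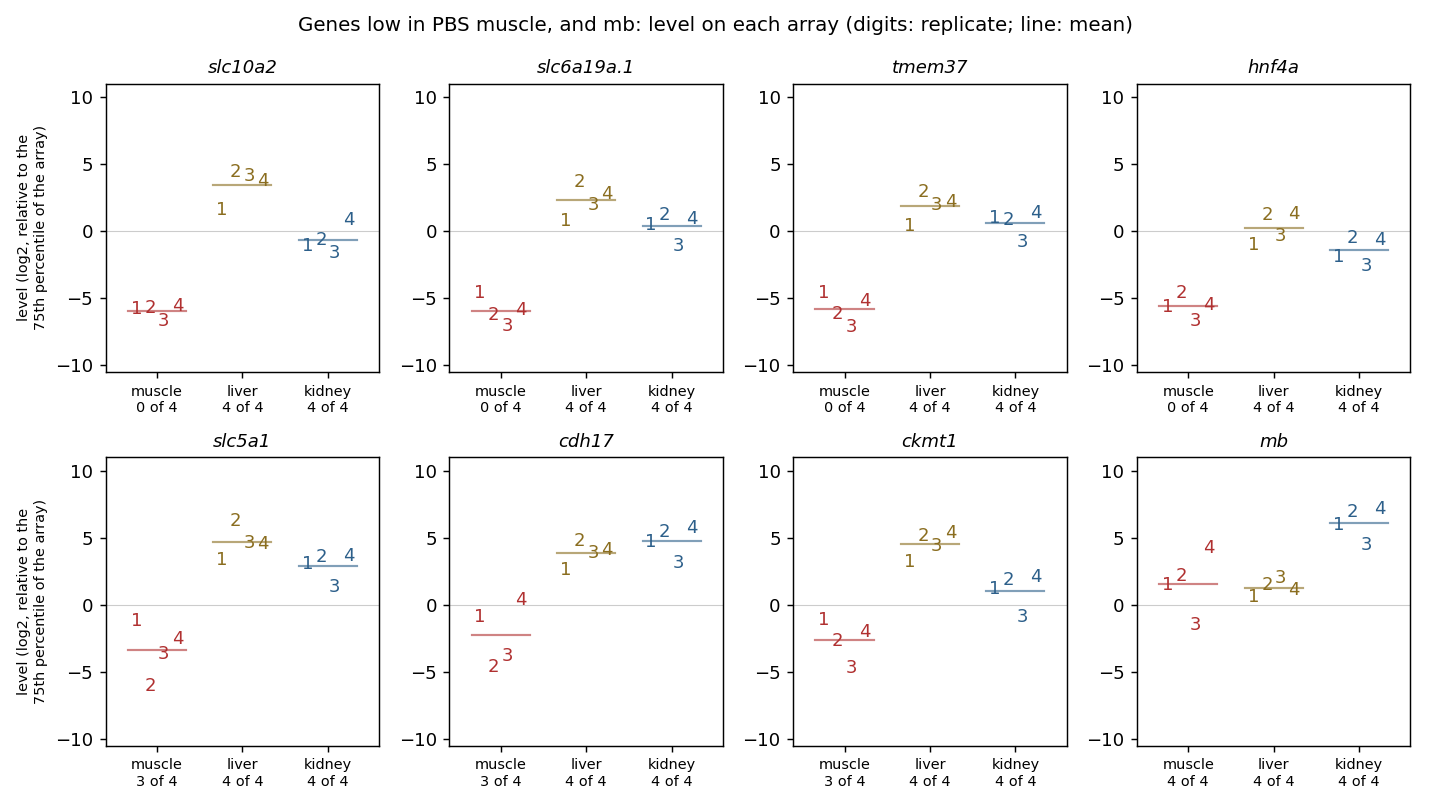
Level of 8 genes on each PBS array (y axis: log2 level relative to the 75th percentile of the array; digits: replicate number; lines: tissue means; below each tissue: arrays well above background). The 4 muscle arrays lie below all others except for *mb*, where muscle overlaps liver and lies below kidney.

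*hnf4a*, a nuclear receptor of liver, kidney and gut, was well above background on no muscle array, with -5.68, -4.58, -6.66 and -5.50, against -1.03, 1.2, -0.34 and 1.25 in liver and -1.90, -0.48, -2.59 and -0.66 in kidney, at least 20.7-fold and 6.5-fold lower. *hnf4g* was at least 52.8-fold lower than liver and 28-fold lower than kidney, and the bile acid receptor relative *nr1h5* at least 19.3-fold and 19.4-fold. *hnf1ba*, which patterns nephrons, was well above background on all 4 muscle arrays and still lower (-4.99 ± 0.62, adjusted p = 0.00077).

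Against kidney, 23 of 32 tubule and podocyte genes were lower in muscle, where 3.44% of all genes were. The thiazide-sensitive carrier *slc12a3* read -5.49, -5.95, -6.83 and -1.74 in muscle, against -3.66, -0.05, -2.55 and -1.14 in liver and 2.86, 4.33, 0.85 and 4.52 in kidney (-8.14 against kidney, adjusted p = 0.0017). The members that went against the list were the water channel *aqp3a* (5.45) and *osr1* (3.82), both higher in muscle than in each tissue. *aqp3a* is also known from fish skin, and read 3.2, 6.11, 3.81 and 4.69 in muscle, with replicate 2 highest.

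Against liver, 14 of 46 hepatocyte genes were lower, where 5.01% of all genes were. Of the 46, 38 were well above background on all 4 muscle arrays, beside 8557 of all 12732 genes. Against the mean of liver and kidney the count was 7, beside 4.05% of all genes. With the replicate block it was 16, beside 7.96% of all genes. The median was -4.48 against liver and 0.45 against kidney. Lower than in each tissue were *hal*, *agxtb*, *hnf4a* and *cyp2ad2*, with *hal*, the histidine ammonia lyase, at -4.87 ± 0.55 (adjusted p = 0.00048). By contrast *fabp10a*, the liver fatty acid binding protein, read 5.23, 8.12, 6.54 and 5.28 in muscle, against 6.59, 8.36, 7.61 and 8.19 in liver and 3.38, 8.44, 5.27 and 4.20 in kidney (-0.21, adjusted p = 0.94). Replicate 2 was the highest *fabp10a* value of muscle, of liver and of kidney. The hepatocyte sum, too, was highest on replicate 2 in each tissue, at 10.92 in muscle, 12.58 in liver and 11.68 in kidney, against 8.49 to 8.90 on the other muscle arrays. Singled out after its values were seen, *cyp7a1*, the rate-limiting enzyme of bile acid synthesis, was higher in muscle on 1 of its 3 probes, with 1.94, 5.57, 3.68 and 3.92 in muscle, against -4.34, -2.65, -0.94 and -1.12 in liver and -2.81, -0.0048, -2.94 and -1.31 in kidney (5.79 ± 0.82, adjusted p = 0.0013). The other probes of *cyp7a1* gave differences down to -1.1.

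Blood-forming and immune genes were lower mainly against kidney. Of 24 neutrophil and macrophage genes 9 were lower than in kidney and none lower than in liver, and of 25 erythroid genes 7 and none, beside 3.44% and 5.01% of all genes. *mpx*, the neutrophil peroxidase, read -2.57, -3.51, -6.73 and -1.70 in muscle, against -3.07, -0.79, 0.35 and -2.23 in liver and 2.79, 3.71, 0.56 and 3.33 in kidney (-6.22 against kidney, adjusted p = 0.0052). *pax5*, of B cells, and *tfr1a*, which takes up iron in red cell precursors, were well above background on no muscle array and at least 9.51-fold and 8.91-fold lower than in kidney. Of 15 lymphocyte genes, 4 were lower than in kidney and 1 was higher than in liver, and 14 were not called against the mean of both. The lymphocyte sum was 3.23 to 4.79 in muscle, against 1.28 to 2.90 in liver and 4.06 to 5.66 in kidney. *tmod4*, a tropomodulin that stood in both the erythroid and the thin filament lists, was higher in muscle (3.11). With the replicate block, 7 of the 24 neutrophil and macrophage genes and 8 of the 25 erythroid genes were lower than the mean of both tissues. Without it the counts were 3 and 2. Of all genes 7.96% were lower with the block and 4.05% without it.

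Of 83 cytosolic ribosomal protein genes 0 were called (limma, 3 at an unadjusted p under 0.05, median difference 0.51), beside 9.22% of all genes. Of 84 genes of the respiratory chain and ATP synthase 4 were higher and 2 lower (0.33), beside 5.17% and 4.05% of all genes. *ndufa4b* was lower in muscle, with -1.72, -2.13, -3.07 and -0.70, against 1.34, 2.78, 2.72 and 2.87 in liver and 1.26, 1.97, -0.45 and 2.40 in kidney (-3.77 ± 0.59, adjusted p = 0.0022). Replication and mitosis genes gave 0 calls of 26 (limma, 2 at an unadjusted p under 0.05, beside 2820 of 12732 genes over all). In the LPS arrays 23 of those 26 were higher in muscle than the mean of both tissues, as were 31 of 33 oocyte genes, against 1 of 33 in PBS arrays, where 27.2% of all genes were higher in the LPS arrays and 5.17% in the PBS arrays. On the PBS arrays the replication and mitosis sum varied with the replicate number, as the oocyte sum did. Replicates 1 and 3 summed to 8.98 and 9.19 in muscle, 8.504 and 8.09 in liver and 8.13 and 8.82 in kidney. Replicates 2 and 4 summed to 5.9981 and 6.93 in muscle, 5.43 and 6.86 in liver and 5.9985 and 6.14 in kidney. The part of oocyte transcripts in the replication and mitosis counts was not tested. Of the 84 respiratory genes, 2 were higher and 34 lower in LPS muscle (median -0.46), where 26.1% of all genes were lower. Among 46 hox genes, which lay down position along the body, 4 were higher and 2 lower, beside 5.17% and 4.05% of all genes. Of the 46, 15 were well above background on no muscle array, 30 on no liver array and 12 on no kidney array. Over all 12732 genes the counts were 1667, 3067 and 767. *hoxa11b* (3.85), *hoxa13b* (3.79), *hoxb13a* (2.13) and *hoxc8a* (2.2) were higher and *hoxb5a* (-3.19) and *hoxb6a* (-2.27) lower in muscle. In the LPS arrays 3 of the 46 were higher and 18 lower.

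The difference between tissues came back in the fish injected with LPS, whose pools were separate. Of the 340 genes higher than in each tissue, 297 (87.4%) were called the same way in LPS arrays, where they made up 19.1% of a list of 1553 genes (12.3% of those tested). Of the 159 lower genes, 145 (91.2%) were called again, 9.88% of 1468 (11.6% of those tested). Against the mean of both tissues, 649 of the 658 higher and 513 of the 516 lower genes had the same sign in LPS arrays, where 27.2% of genes were called higher and 26.1% lower. *pvalb4* differed by 8.65 there, *tnni2b.2* by 8.16, *slc10a2* by -7.79 and *cldna* by 5.76. Genes called in PBS arrays but not in LPS arrays included *mybpc3*, *tcf21*, *pax5*, *hoxc8a* and *ndufa7*. When the difference of the differences was tested in 1 model of the 24 arrays, 0 of 12732 genes passed (limma). Before adjustment, 5002 of 42472 probes had a p under 0.05.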

How the data were processed

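Total RNA of pools of 3 fish was hybridised to one-colour Agilent arrays. The deposited files hold, per spot, a processed signal in intensity units, from which the authors' software had subtracted background. Per the labels the software was Agilent Feature Extraction 10.4.0.0, while the file headers name 10.7.3.1. A deposited table of the authors' normalized log2 values served as an alternative.

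Control spots and outlier spots were left out, signals were taken as log2 minus the 75th percentile of each array, and spots of a probe were averaged. Probes whose raw signal reached the 20th percentile of an array on at least 1 of the 12 PBS arrays were tested with limma 3.58.1 (R 4.3.3) in 1 fit of those arrays, with Benjamini-Hochberg adjustment over 42472 probes and a threshold of 0.05. The probe with the highest mean stood for a gene, and 25069 of 43603 probes matched a symbol, for 12858 genes. The tests measure the spread between pools. The gene lists and comparisons were chosen with earlier results of these data known. Genes were named as list members, as the 15 leading genes in each direction, or as the 10 brightest, and others were named after their values were seen.

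The replicate numbers were checked as pairs: deviations from the group means correlated by 0.15 to 0.71 over the 12 same-number pairs, against -0.67 to 0.66 over 36 unlike pairs, of which 11 were over 0.1. Those 11 joined replicates 1 and 3 or replicates 2 and 4. Liver replicate 1 with kidney replicate 3 gave 0.66, above liver replicate 4 with kidney replicate 4 (0.15). Whether a number marks the same fish was thus not settled by these values, and no label says so. On simulated data, the test against the mean recovered 1, 11, 26 and 39 of 50 probes changed by log2 differences of 1, 2, 3 and 4, with 5 false calls over 38511 probes. When the calls against each tissue were required too, it recovered 0, 3, 18 and 28. The simulated arrays varied independently, unlike the same-number arrays here, so the count of false calls may not carry over. Alternatives covered scaling, background, filters, blocks, array weights and each array left out. Results for some items are not reported here.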

Additional observations from a re-analysis of the deposited data

Results flagged for a closer look

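In groups of 4 arrays, 5 of 298 groups tested held an array whose gap to the nearest of the others was, as a share of the range, above Dixon's critical value. Chance flags about 1 in 20 groups. *anpepb.1* read 3.09 on PBS liver replicate 1, against 5.52 to 6.0 on the other liver arrays. The trypsin gene *prss1* read 6.76 on that array, against 8.33 to 8.61, and *ndufa4b* read 1.34 there, against 2.72 to 2.87. *myl10* read -0.37 on PBS kidney replicate 4, against -4.21 to -3.76 on the other kidney arrays. *fbp1b* read 3.54 on PBS muscle replicate 2, against 1.43 to 1.62 on the other muscle arrays, and that array also had the highest hepatocyte sum of the muscle arrays.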

How the results depend on the processing

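No named gene was counted as reversed under any alternative, and 150 of 167 were called. The sign of a small difference that was not called, such as that of *fabp10a*, can still depend on a single array. Counts moved more. In each set below they run higher and lower than the mean of liver and kidney, higher and lower than each, higher and lower than liver, and higher and lower than kidney. They were 658, 516, 340, 159, 698, 638, 533 and 438 as reported. They were 271, 190, 99, 52, 305, 303, 194 and 157 when tested against a log2 difference of 1, 346, 250, 103, 64, 359, 337, 203 and 187 at an adjusted p under 0.01, and 348, 214, 121, 70, 389, 296, 234 and 207 with the scan day as a random block. The replicate block gave 1199, 1014, 587, 340, 1180, 1070, 1071 and 883, and among the named genes it changed only the call of *lmod2a*. Array weights gave 1371, 1562, 588, 560, 1699, 1956, 912 and 1162, and the LPS arrays 3441, 3309, 1553, 1468, 3539, 3731, 1860 and 1892. The fit of all 24 arrays gave 1123, 930, 577 and 283, with 1180 higher than liver and 940 and 820 against kidney. Normexp gave 303 lower than the mean, 217 and 83 against each, and 288 and 220 against kidney, and shifted the median difference over all genes to 0.32. Quantile normalization gave 241 lower than each, and 1054 and 976 against liver, and the slide as a random block 224 higher than each. Without the 3 kidney arrays of 1 slide, chosen after seeing the data, which leaves 1 kidney array assumed to vary like the others, the counts were 422 higher than the mean, 65 and 78 against each, and 138 and 212 against kidney. Leaving out each array in turn gave 432 to 685, 357 to 686, 179 to 357, 102 to 220, 469 to 759, 386 to 714, 324 to 594 and 245 to 661. Counts moved by over 1.5 times without muscle replicate 2 (432 and 179, and 326 higher than kidney) or 4 (181, and 324 higher than kidney), kidney replicate 2 (102), liver replicate 2 (392) or 4 (386) for lower than liver, and kidney replicate 1 (288), 2 (245), 3 (661) or 4 (291) for lower than kidney. Named calls were lost for 1 to 19 genes when an array was left out, 40 against a log2 difference of 1, 36 with the scan day, 12 with the slide, 15 with normexp, 13 with the mean over probes and 23 without the kidney arrays of that slide. The cause was not tested. With 4 pools per tissue, and dim muscle arrays, differences near background are bounds.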
